A study of Mus musculus with 12 samples.

Results

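The genes described here are 33 genes of glucose and lactate handling, out of 56735 gene names in the count table. They were chosen by name for what their products do, with earlier results of these data known. They comprise 3 glucose transporters, 2 lactate and pyruvate transporters, 3 hexokinases, 7 genes of the steps from fructose phosphates to triose phosphates, 3 genes that set the level of fructose bisphosphates and 6 genes of lower glycolysis. The other members are 2 lactate dehydrogenases, 2 pyruvate dehydrogenase kinases, 4 enzymes of the pentose phosphate pathway and Hif1a, the oxygen-regulated subunit of hypoxia-inducible factor. All 33 passed the filter on low counts and were tested.

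Bulk RNA-seq was made from sorted CD206+ subdural CNS-associated macrophages (sdCAMs). These cells line the leptomeninges and the spaces around vessels, and the brains were freed of their choroid plexuses first. All mice were Mrc1CreERT2/CreERT2:R26tdT/tdT and all received tamoxifen, which activates a Cre driven by Mrc1, the gene of CD206, so that CD206+ cells present at that time and their descendants carry tdTomato (tdT). 4 weeks later the mice were given vehicle or BLZ945, an inhibitor of the CSF-1 receptor that depletes brain macrophages, on 7 successive days (200 mg per kg for the inhibitor), and the sort followed 8 weeks after the last dose. The 3 groups of 4 libraries were tdT+ cells of vehicle mice, tdT+ cells of BLZ945 mice and tdT- cells of BLZ945 mice, with tdT+ and tdT- libraries of the same label (F1, F2, M1 or M2) from the same BLZ945 mouse. The vehicle mice were other animals, and tdT- cells of vehicle mice were not analysed here. The ages of the mice are not given in the labels.

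Glycolysis splits glucose into pyruvate in the cytosol and yields ATP without oxygen, and lactate dehydrogenase interconverts pyruvate and lactate. The pentose phosphate pathway branches off after the hexokinase step and supplies NADPH and ribose. Macrophages are known to raise glucose uptake, glycolysis and lactate export when activated, partly through hypoxia-inducible factor, while resting tissue macrophages rely more on mitochondrial respiration.

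The libraries held between 19969308 and 23395058 counts each and detected between 14230 and 15866 genes. Of 5 microglia markers (P2ry12, Tmem119, Siglech, Sall1 and Sparc), 5 were higher in BLZ945 tdT- than in BLZ945 tdT+ libraries, and 8 of 9 sdCAM markers, among them Mrc1, Cd163 and Lyve1, were lower (DESeq2, adjusted p at most 0.05). The summed level of the 5 microglia markers was 20507 to 31779.5 normalised counts in vehicle, 40019.7 to 42988 in BLZ945 tdT+ and 95684 to 227102 in BLZ945 tdT- libraries, and none of the 5 was at 0 in any group. The tdT- library F2 also stood apart, with 432625 normalised counts summed over 8 neutrophil markers against at most 93.9 in any other library, and with 51170 over 5 monocyte markers against at most 6817. The sum over 5 red blood cell markers was 36171 in tdT- F2 and 14845 and 15807 in BLZ945 tdT+ F1 and F2. It was 8778 and 6290 in vehicle F2 and M2, and at most 1106 in any other library. The sum over 5 oligodendrocyte markers was 9290 in BLZ945 tdT+ F1, against at most 4026 elsewhere. In bulk RNA, a change in the share of a cell type and a change in RNA per cell cannot be told apart. Counts under a tdTomato name came to 0 over all 12 libraries, which would also hold without such an entry, so they do not check the sort.

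The 33 genes together took 0.333% to 0.356% of all counts in vehicle tdT+ libraries, 0.334% to 0.380% in BLZ945 tdT+ libraries and 0.388% to 0.512% in BLZ945 tdT- libraries. Every tdT- library thus lay above every tdT+ library of either treatment, while both tdT+ groups overlapped. The highest share was in tdT- F2, the library with neutrophil transcripts, followed by 0.431% in tdT- M1. Levels of different genes are compared here as normalised counts per kilobase of exon, averaged over 12 libraries. Ldha was highest at 2261 ± 226 (SD, n = 12), followed by the aldolase Aldoa at 2256 ± 326 and the pentose phosphate enzyme Taldo1 at 2103 ± 414, and these neighbours differed by less than their spread. Gapdh (1519 ± 238), Eno1 (1519 ± 289), Ldhb (1444 ± 1424), Tpi1 (1270.1 ± 209) and Pkm (1253 ± 341) came next, and each differed from its neighbour in this order by less than the larger of their SDs. The least abundant members were Slc2a3, the high-affinity glucose transporter GLUT3, at 34.3 ± 21.5, the gluconeogenic enzyme Fbp1 at 14.6 ± 20.8 and the neuronal enolase Eno2 at 9.06 ± 13.1, each with at least 1 library at 0.

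**Figure D1:**
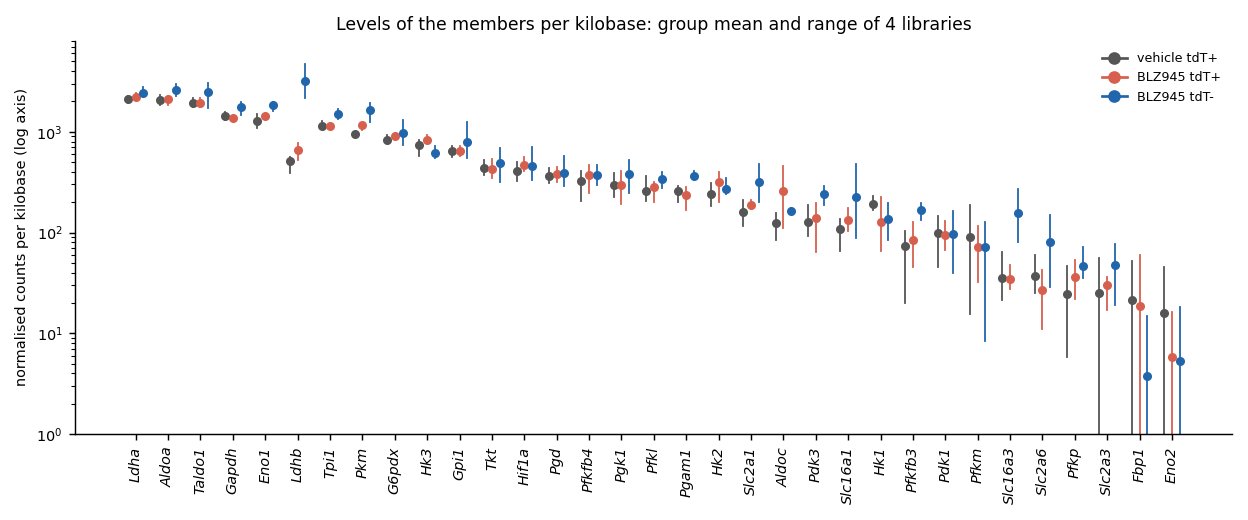
Normalised counts per kilobase of exon on a log axis for the 33 genes, ordered by their mean over 12 libraries, with the mean (point) and the lowest and highest of 4 libraries (line) in each group; ranges that reach 0 end at the axis floor of 1. Most genes lay at like levels in the 3 groups, whereas Ldhb moved from 512 and 653 in both tdT+ groups to 3169 in BLZ945 tdT- libraries.

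Setting tdT- beside tdT+ cells from the same BLZ945 mice asks how CD206+ cells that lack the label differ from cells that kept it. Of the 33 genes, 6 were higher in tdT- cells and 0 were lower (DESeq2, adjusted p at most 0.05), where 6.38% of all 13724 genes passed that threshold, 2.86% as higher. The 6 were the lactate dehydrogenase gene Ldhb, the lactate exporter Slc16a3 and the glycolytic enzymes Tpi1, Pkm, Eno1 and Gapdh. Ldhb and Slc16a3 also met the study's rule for a differentially expressed gene (DEG), which in addition asks for a shrunken log2 fold change of 1 or more in either direction, as did 2.25% of all genes. At an unadjusted p under 0.05, 14 members passed with DESeq2 and 13 with edgeR, against 15.8% and 14.3% of all genes. The median log2 fold change of the 33 genes was 0.32, with 26 above 0, against a median of 0.00 and 50.3% above 0 for all genes.

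Ldhb encodes the B subunit of lactate dehydrogenase, which is known to favour the direction from lactate to pyruvate, and lies on the minus strand at chr6:142435975-142453683 in GRCm39. Its normalised counts were 3524, 3367, 7343 and 5666 in the tdT- libraries F1, F2, M1 and M2 of BLZ945 mice, 1206, 1086, 992 and 817 in the tdT+ libraries of the same mice, and 872, 861, 875 and 605 in the vehicle libraries. All 4 tdT- libraries lay far above all 8 tdT+ libraries, with M1 and M2 the highest. The log2 fold change was 2.28 ± 0.26 (SE, DESeq2 adjusted p = 4.35e-16) against BLZ945 tdT+ cells and 2.63 ± 0.26 (adjusted p = 1.25e-21) against vehicle cells. Without the tdT- library F2 the former was 2.42. By level per kilobase Ldhb ranked 11 of the 33 genes in vehicle libraries (512 ± 84.3), 10 in BLZ945 tdT+ libraries (653 ± 105) and 1 in BLZ945 tdT- libraries (3169 ± 1207; SD, n = 4). These ranks rest on division by exon length, 1570 bases for Ldhb. By mean normalised counts in tdT- libraries, Ldhb (4975) was not the highest. It lay below Eno1 (9999.8), Aldoa (9603), Pkm (8157), Ldha (8100), Gapdh (7321), Taldo1 (5354) and Gpi1 (5146).

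Ldha, which encodes the A subunit, known to favour lactate production, was not past an adjusted p of 0.05 in any comparison. Its normalised counts were 8109, 9276, 7712 and 7303 in tdT- libraries, 6946, 7500.3, 7962 and 6874 in BLZ945 tdT+ libraries and 7299, 6334, 7017 and 7474 in vehicle libraries, so the groups overlapped. Its log2 difference was 0.15 ± 0.10 against BLZ945 tdT+ cells (DESeq2 adjusted p = 0.577) and 0.20 ± 0.10 against vehicle cells (adjusted p = 0.295). Per kilobase, Ldhb made up 47.8%, 43.4%, 66.7% and 62.1% of both lactate dehydrogenase transcripts in the tdT- libraries, 26.8%, 23.4%, 20.8% and 20.04% in BLZ945 tdT+ libraries and 20.1%, 22.3%, 20.8% and 14.6% in vehicle libraries. In M1 and M2, 2 of 4 tdT- libraries, Ldhb was the more abundant of both genes per kilobase. This held in 0 of the 8 tdT+ libraries. The order and the shares depend on the exon lengths used, 1570 bases for Ldhb and 3310 for Ldha. By normalised counts not divided by length, Ldha was higher than Ldhb in every library.

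The microglia markers, like Ldhb, were higher in every tdT- library than in every tdT+ library. Between both tdT+ groups their summed level did not overlap, while that of Ldhb did. Among the tdT- libraries the summed level of the 5 markers was 95684 in F1, 100149 in F2, 227102 in M1 and 148032 in M2, and the libraries with the highest marker level, M1 and then M2, were also those with the highest Ldhb. The order of F1 and F2 was the reverse for Ldhb (3524 and 3367). Slc2a5, a fructose transporter that in brain is best known from microglia and is not among the 33 genes, had 3904, 3728, 9824 and 7208 normalised counts in the same libraries. The part of these markers in the Ldhb result was not tested. The log2 fold changes of the 5 single markers between tdT- and BLZ945 tdT+ cells lay between 1.48 and 2.199, against 2.28 for Ldhb.

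**Figure D2:**
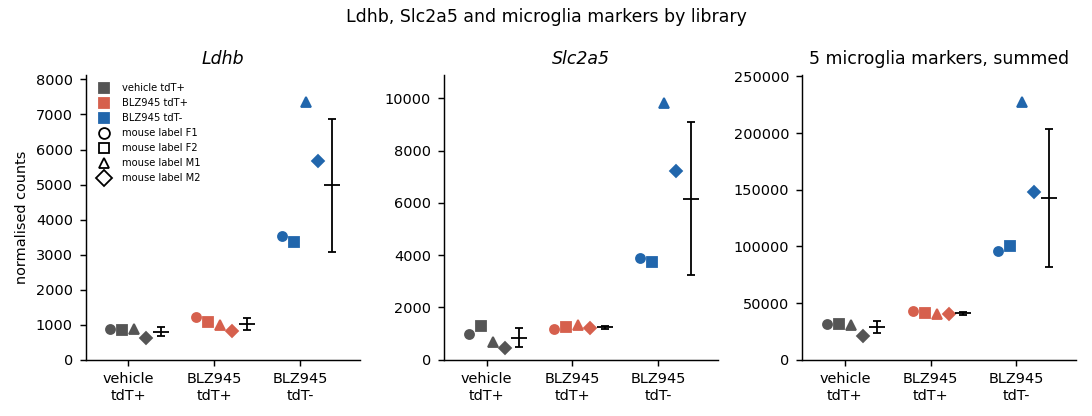
Normalised counts of Ldhb, of Slc2a5 and of the summed 5 microglia markers in each of 12 libraries, with symbols for the mouse label and a bar for the mean ± SD of 4 libraries. In all 3 panels every tdT- library lay above every tdT+ library, and M1 was the highest tdT- library, followed by M2.

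Promoter windows of Ldhb, of its partner Ldha and of Slc16a3 are printed because the first and last of these are the 2 members that met the DEG rule and Ldha was not past an adjusted p of 0.05. They run from 250 bases before to 50 bases after a RefSeq start (GRCm38.p6), 5′ to 3′ on the strand of the gene, and capitals mark the core letters of the hypoxia response element, ACGTG or GCGTG on either strand. Ldhb is at chr6:142507908-142508207 (minus strand), the first of the 2 Ldha windows at chr7:46845554-46845853 (plus strand) and Slc16a3 at chr11:120948817-120949116 (plus strand).
Ldhb: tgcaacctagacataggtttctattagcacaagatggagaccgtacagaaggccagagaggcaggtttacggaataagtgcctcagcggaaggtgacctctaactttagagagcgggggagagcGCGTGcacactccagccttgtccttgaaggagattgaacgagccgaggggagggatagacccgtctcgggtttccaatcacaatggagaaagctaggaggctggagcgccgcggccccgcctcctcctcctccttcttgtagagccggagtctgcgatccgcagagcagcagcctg
Ldha: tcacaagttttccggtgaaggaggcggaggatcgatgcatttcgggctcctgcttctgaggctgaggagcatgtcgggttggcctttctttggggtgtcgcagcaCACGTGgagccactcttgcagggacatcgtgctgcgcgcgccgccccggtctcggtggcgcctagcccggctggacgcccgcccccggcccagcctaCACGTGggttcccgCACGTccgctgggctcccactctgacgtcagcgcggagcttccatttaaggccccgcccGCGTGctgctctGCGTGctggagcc
Slc16a3: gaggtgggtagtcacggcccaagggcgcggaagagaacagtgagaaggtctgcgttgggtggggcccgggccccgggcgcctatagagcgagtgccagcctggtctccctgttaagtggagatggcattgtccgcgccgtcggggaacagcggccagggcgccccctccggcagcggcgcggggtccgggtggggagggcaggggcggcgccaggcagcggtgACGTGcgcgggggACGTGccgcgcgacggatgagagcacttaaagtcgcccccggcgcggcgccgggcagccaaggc
The Ldhb window held 1 core, the Ldha window 7 and the Slc16a3 window 2, where CACGTG counts once on each strand. Windows were found for 32 of the 33 genes, 46 in all, and 36 of these 46 (78.3%) held at least 1 core, against 43.8% of 32851 windows of all genes. Both cores contain the letters CG, and the windows of all genes were not matched for base content. The part of base content in this difference was not tested. The windows of the 6 genes higher in tdT- than in BLZ945 tdT+ cells held one in 7 of 9 (77.8%), a share close to that of the 33 genes. Of the 33 genes, 10 had more than 1 window. Windows of the same gene can overlap, as for Eno1, and were each counted, so they are not independent. The core of the antioxidant response element, TGACNNNGC on either strand, occurred in 6 of the 46 windows of the 33 genes (13%), close to the 12.4% of all windows. It occurred in 2 of 5 windows of the pentose phosphate genes and in 0 of 9 of the 6 genes higher in tdT- cells.

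Slc16a3, which encodes the proton-coupled lactate exporter MCT4, lies at chr11:120839306-120851694 in GRCm39. It had 717, 1440.5, 775 and 426 normalised counts in the tdT- libraries F1, F2, M1 and M2, 156, 178, 254 and 148 in BLZ945 tdT+ libraries and 341, 113, 131 and 169 in vehicle libraries. The lowest tdT- library lay above the highest of the 8 tdT+ libraries. The log2 fold change was 2.19 ± 0.47 against BLZ945 tdT+ cells (DESeq2 adjusted p = 0.000128) and 2.16 ± 0.47 against vehicle cells (adjusted p = 0.000175). Without the tdT- library F2, which holds the neutrophil transcripts, these were 1.79 (adjusted p = 0.00461) and 1.76 (adjusted p = 0.00545). Slc16a3 shares 306 exon bases with Csnk1d, whose log2 fold change was -0.25 ± 0.17 and -0.14 ± 0.17 in the same comparisons (adjusted p = 0.541 and 0.841).

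Slc16a1, which encodes MCT1, the transporter for both lactate and pyruvate in either direction, had 505, 392, 2117 and 1012 normalised counts in tdT- libraries, 556, 558, 768 and 458 in BLZ945 tdT+ libraries and 292, 539, 483 and 600.3 in vehicle libraries. F1 and F2 of the tdT- group lay within the tdT+ range, while M1 and M2 lay above it. Slc16a1 had a log2 fold change of 0.78 ± 0.47 (DESeq2 adjusted p = 0.457) against BLZ945 tdT+ and 1.07 ± 0.47 (adjusted p = 0.191) against vehicle cells. Slc16a3 was the more abundant of both transporters per kilobase in tdT- F1 (54.2%) and F2 (75.4%) and the less abundant in M1 (23.4%) and M2 (25.9%).

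Pkm encodes pyruvate kinase, which makes pyruvate in the last step of glycolysis. It had 7421, 9603, 9321 and 6281 normalised counts in tdT- libraries, 6163, 5240.4, 6061 and 5966 in BLZ945 tdT+ libraries and 4924, 4797, 4846 and 4549 in vehicle libraries. The 3 groups did not overlap, with vehicle lowest and tdT- highest. The difference was 0.48 ± 0.14 on the log2 scale between tdT- and BLZ945 tdT+ cells (DESeq2 adjusted p = 0.0106), 0.77 ± 0.14 between tdT- and vehicle cells (adjusted p = 1.13e-06) and 0.29 ± 0.14 between both tdT+ groups (adjusted p = 0.504).

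Eno1, the main enolase, had 8661, 10624, 10372 and 10342 normalised counts in tdT- libraries, 7266, 7761, 8056 and 7477 in BLZ945 tdT+ libraries and 8069, 6934, 6547 and 5924 in vehicle libraries. All tdT- libraries lay above all others, and F1 was the lowest of them. Eno1 differed by 0.39 ± 0.11 on the log2 scale (DESeq2 adjusted p = 0.0113) against BLZ945 tdT+ and 0.54 ± 0.11 (adjusted p = 5.69e-05) against vehicle cells. Eno1 made up at least 96.0% of Eno1 and Eno2 transcripts per kilobase in every library.

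Tpi1, triosephosphate isomerase, had 4594, 4514, 3951 and 3648 normalised counts in tdT- libraries, 3288, 3115, 2993 and 3213 in BLZ945 tdT+ libraries and 3536, 3054, 3015 and 3039 in vehicle libraries. The tdT- libraries lay above all others by a narrow margin for M2. Its log2 fold change was 0.41 ± 0.11 (DESeq2 adjusted p = 0.00856) against BLZ945 tdT+ and 0.40 ± 0.11 (adjusted p = 0.00945) against vehicle cells.

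Gapdh, which oxidises glyceraldehyde 3-phosphate and is often used as a reference gene, had 6892, 8193, 8083 and 6114 normalised counts in tdT- libraries, 5863, 5732, 5422 and 5362 in BLZ945 tdT+ libraries and 6457, 5377, 5654 and 6182 in vehicle libraries. The tdT- libraries lay above those of BLZ945 tdT+ cells but overlapped the vehicle group. The log2 fold change was 0.39 ± 0.12 (DESeq2 adjusted p = 0.0163) against BLZ945 tdT+ cells and 0.31 ± 0.12 against vehicle cells (adjusted p = 0.0909).

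**Figure D3:**
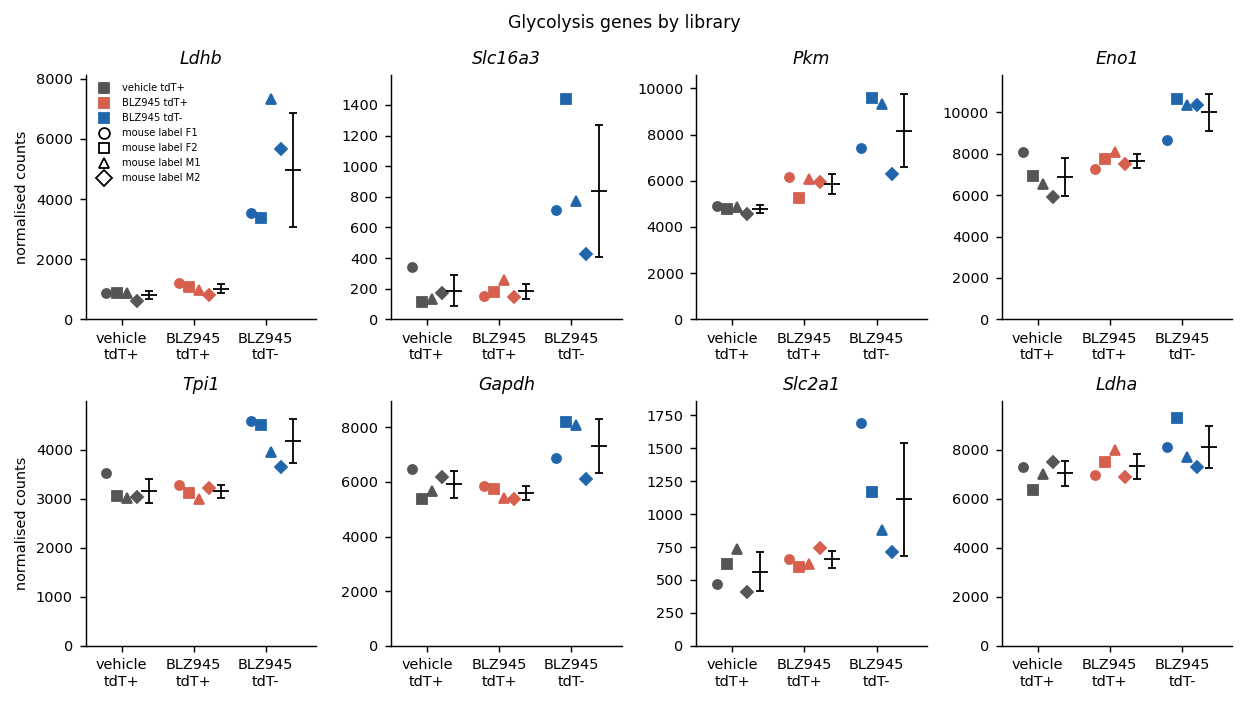
Normalised counts in each of 12 libraries for the 7 members past an adjusted p of 0.05 in any comparison and for Ldha, with symbols for the mouse label and a bar for the mean ± SD of 4 libraries; every axis starts at 0. Ldhb and Slc16a3 were 4.85 and 4.56 times as high in tdT- as in BLZ945 tdT+ libraries by the ratio of means, whereas Pkm, Eno1, Tpi1 and Gapdh were between 1.31 and 1.39 times as high.

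The call on Ldhb and Slc16a3 held in 19 of 19 alternative fits of each comparison with tdT- cells. Those on the 4 glycolytic enzymes between tdT- and BLZ945 tdT+ cells changed with the fit. For tdT- against BLZ945 tdT+ cells, the quasi-likelihood test of edgeR gave 2 members past 0.05 (2.75% of all genes), Ldhb (adjusted p = 0.000384) and Slc16a3 (adjusted p = 0.0207), with adjusted p between 0.0893 and 0.111 for Tpi1, Pkm, Eno1 and Gapdh. In a DESeq2 fit with the mouse as a block, 3 members passed, Ldhb, Slc16a3 and Eno1 (adjusted p = 0.00393), while Tpi1 (adjusted p = 0.0646), Pkm (adjusted p = 0.0794) and Gapdh (adjusted p = 0.0552) did not. Without the tdT- library F2, Pkm (0.39, adjusted p = 0.0558) and Gapdh (0.33, adjusted p = 0.0709) were no longer past the threshold and Hk3 was called lower. Without tdT- M1 the calls on Pkm (0.41) and Gapdh (0.34) were lost as well. Leaving out BLZ945 tdT+ libraries also ended calls, on Pkm without F2, on Gapdh without M1 or M2, on Tpi1 without M1 and on Eno1 without F1 or M2. Calls were gained as well, on Aldoa, Slc2a1 and Taldo1 without tdT- M2 and on Hk3 and Pfkfb3 without vehicle M2.

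At the entry of the pathway, the glucose transporter Slc2a1 (GLUT1) had 1692, 1172, 879.6 and 709.5 normalised counts in tdT- libraries, 661, 599, 620.4 and 743 in BLZ945 tdT+ libraries and 472, 624, 738 and 410.1 in vehicle libraries. F1 and F2 of the tdT- group stood highest, and M2 lay within the tdT+ range. Its log2 fold change was 0.99 ± 0.31 against vehicle cells (DESeq2 adjusted p = 0.0248, edgeR adjusted p = 0.103) and 0.76 ± 0.31 against BLZ945 tdT+ cells (adjusted p = 0.133). Between both tdT+ groups it was 0.22 ± 0.31 (adjusted p = 0.9997). The call against vehicle cells was lost without tdT- F1 (0.71), tdT- F2 (0.96), vehicle F1 (0.91) or vehicle M2 (0.86), with adjusted p between 0.0633 and 0.142. Slc2a3 and Slc2a6, a lysosomal hexose transporter of macrophages, had log2 fold changes of 0.65 ± 0.98 and 1.58 ± 0.67 between tdT- and BLZ945 tdT+ cells (DESeq2 adjusted p = 0.889 and 0.160).

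Of the hexokinases, which trap glucose as glucose 6-phosphate, 0 of 3 passed the threshold with DESeq2 in any comparison. At an unadjusted p under 0.05, 1 of 3, Hk3, passed with either tool between tdT- and BLZ945 tdT+ cells. Of all genes, 15.8% did with DESeq2 and 14.3% with edgeR. Against vehicle cells 0 of 3 passed, where 16.2% and 14.6% of all genes did. Between both tdT+ groups 0 of 3 passed as well, where 8.08% and 6.95% did. Hk3, the form most abundant in these cells at 60.2% to 65.4% of hexokinase transcripts per kilobase in group means, had 2234, 2641, 2002 and 2248 normalised counts in tdT- libraries, 3382, 2915, 2838 and 3036 in BLZ945 tdT+ libraries and 2841, 2893, 3023 and 2094 in vehicle libraries. Every tdT- library lay below every BLZ945 tdT+ library, with a log2 fold change of -0.42 ± 0.15 that missed the threshold (DESeq2 adjusted p = 0.0795). Of the 10 members whose tdT- and BLZ945 tdT+ libraries did not overlap, Hk3 was the 1 that lay lower and 9 lay higher, where 9.35% of all genes did not overlap and 4.56% lay higher. Hk1 and Hk2 had log2 fold changes of 0.08 ± 0.37 and -0.23 ± 0.27.

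In upper glycolysis, the phosphofructokinase subunits Pfkl, Pfkm and Pfkp and the isomerase Gpi1 were not past an adjusted p of 0.05, with log2 fold changes between tdT- and BLZ945 tdT+ cells of 0.25 ± 0.23, -0.01 ± 0.78, 0.38 ± 0.54 and 0.32 ± 0.22 in that order, and Pfkl held 70.7% to 74.3% of phosphofructokinase transcripts per kilobase in group means. Aldoa had 9431, 9461, 11109 and 8409.9 normalised counts in tdT- libraries, 8252, 6799.8, 8375 and 7754 in BLZ945 tdT+ libraries and 7680.4, 6766, 7825 and 8559.5 in vehicle libraries. The tdT- libraries lay above those of BLZ945 tdT+ cells by a small margin, with a log2 fold change of 0.30 ± 0.12 (DESeq2 adjusted p = 0.105).

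Pfkfb3 and Pfkfb4 encode the bifunctional enzymes that make fructose 2,6-bisphosphate, the activator of phosphofructokinase. Pfkfb4, the more abundant, had 2280.3, 2016, 1545 and 1434 normalised counts in tdT- libraries, 1978, 2273, 1755 and 1205 in BLZ945 tdT+ libraries and 1563, 1982, 1819 and 992 in vehicle libraries, which overlapped throughout. Pfkfb3 had 1007, 1054, 1497 and 1455 in tdT- libraries against 504, 972, 340.4 and 719 in BLZ945 tdT+ libraries and 619, 655, 780.0 and 152 in vehicle libraries. The tdT- libraries of Pfkfb3 lay above all others, with a log2 fold change of 0.98 ± 0.45 (DESeq2 adjusted p = 0.219) and 1.18 ± 0.45 (adjusted p = 0.0959).

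Of the other genes of lower glycolysis, Pgam1, phosphoglycerate mutase, had 657, 734, 697 and 809 normalised counts in tdT- libraries, against 473, 485, 563 and 334 in BLZ945 tdT+ libraries and 559, 399, 513 and 569 in vehicle libraries. The tdT- libraries lay above all others while both tdT+ groups overlapped, and the log2 fold change of 0.64 ± 0.24 against BLZ945 tdT+ cells missed the threshold (DESeq2 adjusted p = 0.0885). Pgk1, an earlier ATP-producing enzyme, had a log2 fold change of 0.34 ± 0.33. Eno2, and Fbp1 of the fructose bisphosphate genes, were low, with log2 fold changes of -0.14 ± 1.90 and -2.32 ± 2.63. Pdk3, a kinase that inactivates pyruvate dehydrogenase and so keeps pyruvate out of the mitochondrion, had 736, 483, 525 and 707 normalised counts in tdT- libraries, 371, 163, 497 and 390.1 in BLZ945 tdT+ libraries and 236, 337, 476 and 242 in vehicle libraries. F2 of the tdT- group was the 1 tdT- library within the tdT+ range, and the log2 fold change was 0.79 ± 0.39 (adjusted p = 0.295), while that of Pdk1 was 0.03 ± 0.46.

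**Figure D4:**
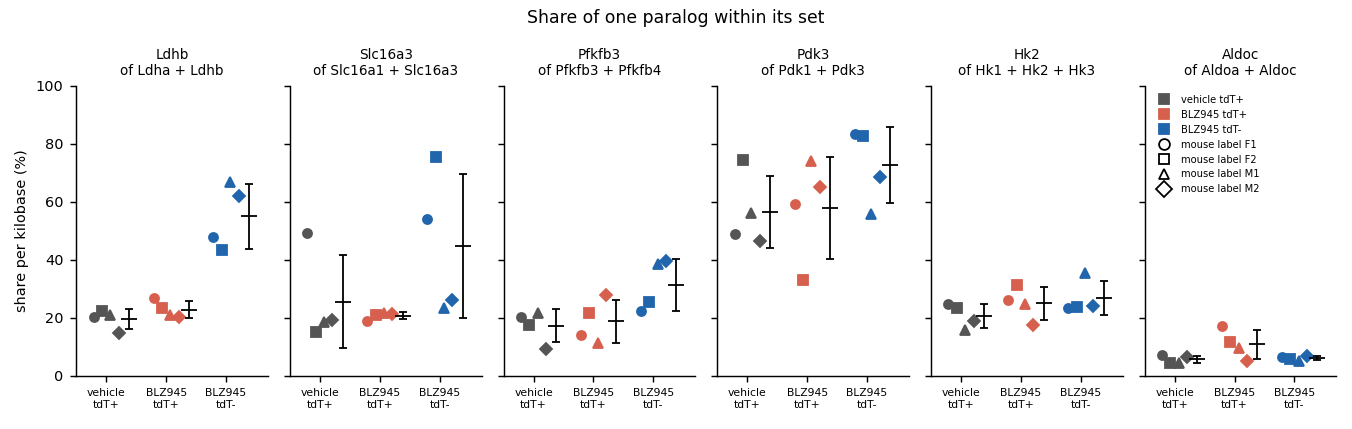
Share of 1 gene among the members that encode the same activity, from normalised counts per kilobase, in each of 12 libraries, with symbols for the mouse label and a bar for the mean ± SD of 4 libraries. The Ldhb share was 22.8% ± 3.06 in BLZ945 tdT+ and 55.0% ± 11.2 in tdT- libraries without overlap, and that of Slc16a3 lay between 18.9% and 21.6% in BLZ945 tdT+, between 23.4% and 75.4% in tdT- and between 14.9% and 49.3% in vehicle libraries, whereas the shares of Pfkfb3, Pdk3, Hk2 and Aldoc overlapped between those groups.

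Of the pentose phosphate genes, G6pdx, which encodes the enzyme of the first, NADPH-producing step, Pgd, which makes the second NADPH, Tkt and Taldo1, which shuttle carbon back to glycolysis, 0 of 4 passed the threshold in any of the 3 comparisons with DESeq2 or edgeR. At an unadjusted p under 0.05, 1 of 4 passed with either tool between tdT- and BLZ945 tdT+ cells, and 1 with DESeq2 and 0 with edgeR between tdT- and vehicle cells. Over all genes these shares were 15.8% with DESeq2 and 14.3% with edgeR in the former and 16.2% and 14.6% in the latter comparison. Taldo1 had 5266, 6614, 5770.3 and 3767 normalised counts in tdT- libraries, 4733, 4197, 3923 and 3807 in BLZ945 tdT+ libraries and 4136, 4068, 3838 and 4671 in vehicle libraries, with M2 the lowest of the tdT- group and below all 8 tdT+ libraries. Its log2 fold change was 0.36 ± 0.16 against either tdT+ group (DESeq2 adjusted p = 0.212 and 0.219). Those of G6pdx, Pgd and Tkt between tdT- and BLZ945 tdT+ cells were 0.10 ± 0.17, 0.02 ± 0.23 and 0.21 ± 0.23. In tdT- F2, the library with neutrophil transcripts, G6pdx (4045), Pgd (3737), Tkt (5041) and Gpi1 (8021) were each at their highest of all 12 libraries. So were Taldo1, Ldha, Pgk1, Pfkp, Slc2a3, Slc2a6 and Hif1a. Of the genes called between tdT- and BLZ945 tdT+ cells, Slc16a3 (1440.5), Pkm (9603), Eno1 (10624) and Gapdh (8193) were highest there as well. Ldhb (3367) and Tpi1 (4514) were not. The share of all genes that were highest in tdT- F2 was not determined, so this list has no background to be set against. The part of the neutrophil transcripts in these values was not tested.

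Hif1a had 2211, 4192, 1941 and 2383 normalised counts in tdT- libraries, 3315, 2413, 2742 and 2520.2 in BLZ945 tdT+ libraries and 1908, 2307, 2478 and 2968 in vehicle libraries. F2 stood highest of all 12 libraries, and the other 3 tdT- libraries lay within the range of the tdT+ libraries. Hif1a had a log2 fold change of -0.03 ± 0.24 (DESeq2 adjusted p = 0.989) against BLZ945 tdT+ and 0.15 ± 0.24 (adjusted p = 0.896) against vehicle cells.

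The comparison of tdT+ cells of BLZ945 mice with those of vehicle mice asks whether labelled cells of treated mice differed 8 weeks later. Of the 33 genes, 0 passed the threshold with DESeq2, where 0.955% of all genes did, and 0 with edgeR, where 0.0656% of all genes did. At an unadjusted p under 0.05, 2 passed with either tool, where 8.08% of all genes did with DESeq2 and 6.95% with edgeR. The median log2 fold change was 0.06 with 20 of 33 above 0, against 0.03 and 52.7% for all genes, and 1 member, Pkm, did not overlap between the groups and lay higher, where 6.72% of all genes did not overlap and 3.58% lay higher. The 2 were Pkm, described above, and Aldoc, an aldolase of brain, which had 1492, 791, 763 and 363 normalised counts in BLZ945 tdT+ libraries and 515, 275, 320.3 and 507 in vehicle libraries. M2 was the lowest BLZ945 library of Aldoc and lay within the vehicle range, and the log2 fold change was 1.07 ± 0.40 (DESeq2 adjusted p = 0.241). Without that library it was 1.32 ± 0.35 (adjusted p = 0.0237), and without F1, the highest, it was 0.66 ± 0.37 (adjusted p = 0.793).

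Setting tdT- cells beside the vehicle group asks how unlabelled cells after BLZ945 differed from labelled cells of mice that received vehicle. It shares the tdT- libraries with the first comparison, so that both do not stand independently. Of the 33 genes, 6 were higher and 0 lower (DESeq2), where 6.76% of all genes passed and 3.27% were higher. They were Ldhb, Pkm, Eno1, Slc16a3, Tpi1 and Slc2a1, with Ldhb and Slc16a3 as DEGs (2.55% of all genes). With edgeR 4 passed, Ldhb (adjusted p = 0.000109), Pkm (0.00604), Eno1 (0.0190) and Slc16a3 (0.0219), where 3.25% of all genes did. The median log2 fold change was 0.35 against 0.03 for all genes, and 27 of 33 lay above 0, against 52.2% of all genes. In 8 members the groups did not overlap, all 8 higher, where 9.7% of all genes did not overlap and 4.82% lay higher. At an unadjusted p under 0.05, 14 members passed with DESeq2 and 11 with edgeR, against 16.2% and 14.6% of all genes. In the 19 alternative fits Pkm and Eno1 kept their call in 19, Tpi1 in 13 and Slc2a1 in 12.

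**Figure D5:**
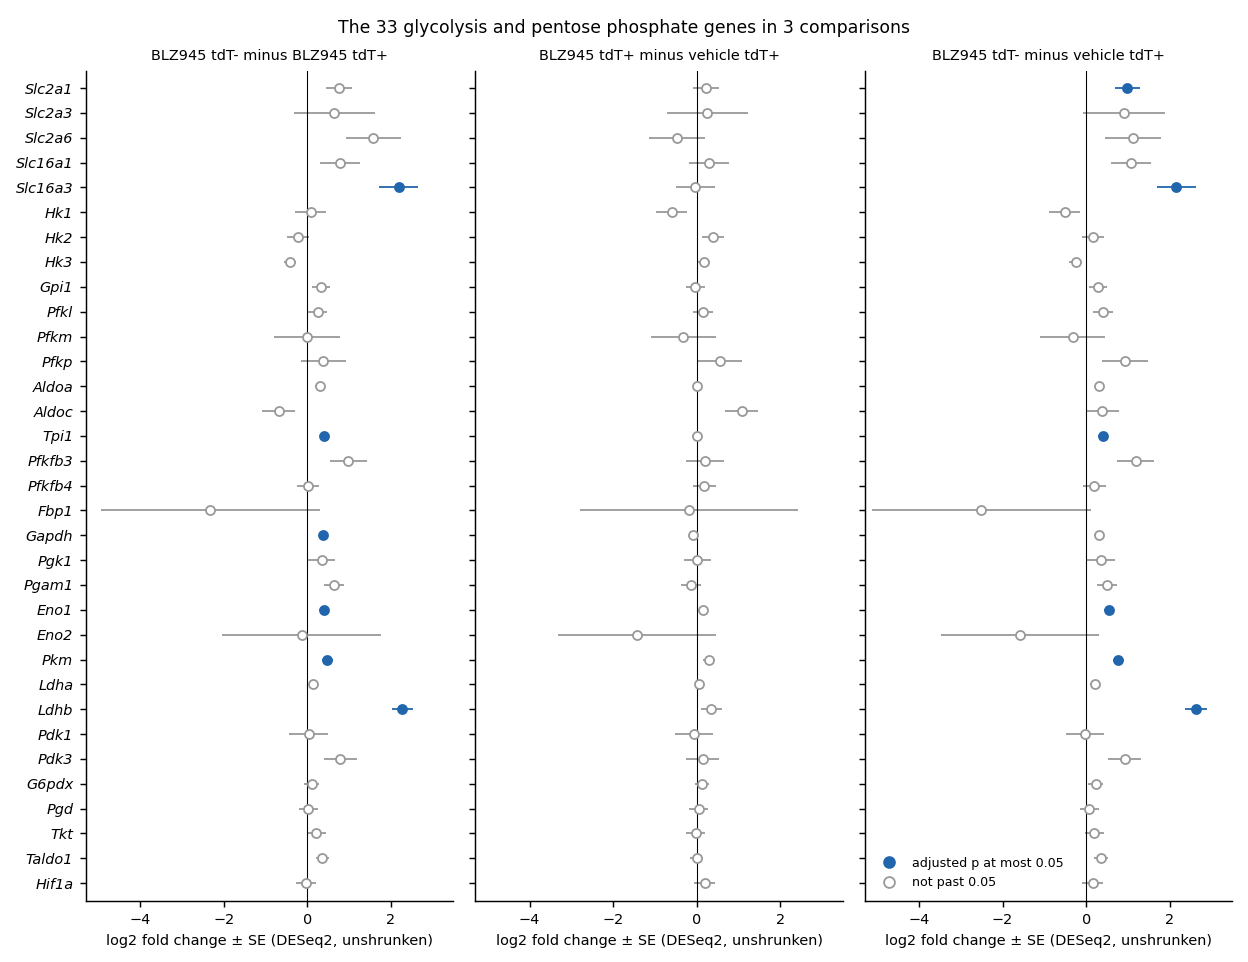
Log2 fold change ± SE of each of the 33 genes (unshrunken DESeq2 estimates) in the 3 comparisons, with filled points for an adjusted p of at most 0.05; libraries are shared between panels. Ldhb and Slc16a3 stood between 2.16 and 2.63 in both comparisons with tdT- cells, and in the comparison between both tdT+ groups 0 of 33 points were filled.

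Around these genes, 87 others of the same pathways were listed, of which 70 passed the filter on low counts. Between tdT- and BLZ945 tdT+ cells 3 were higher and 4 lower, between both tdT+ groups 1 was higher and 1 lower, and between tdT- and vehicle cells 4 were higher and 4 lower (DESeq2). Of all genes 2.86%, 0.481% and 3.27% were higher and 3.51%, 0.474% and 3.49% lower in these comparisons. Their median log2 fold changes of -0.01, 0.02 and 0.03 were close to those of all genes. Of 12 tested HIF-responsive genes outside glycolysis, 0 passed in either comparison with tdT- cells with DESeq2, and 1 did in each at an unadjusted p under 0.05 with DESeq2 and with edgeR, where between 14.3% and 16.2% of all genes did. In the comparison between both tdT+ groups the 1 that passed was Ero1a, an oxidase of the endoplasmic reticulum, with 686, 798, 811 and 839 normalised counts in BLZ945 and 451, 528, 444 and 423 in vehicle libraries (log2 fold change 0.76 ± 0.21, adjusted p = 0.0305). Ero1a kept its call in 10 of 19 alternative fits and lost it with edgeR (adjusted p = 0.343) and with the replicate block (adjusted p = 0.0986).

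Slc2a5 was higher in tdT- cells, by 2.32 ± 0.33 on the log2 scale between tdT- and BLZ945 tdT+ cells (DESeq2 adjusted p = 4.98e-10) and 2.87 ± 0.33 between tdT- and vehicle cells (adjusted p = 2.10e-15). Its counts were 1163, 1264, 1311 and 1199.8 in BLZ945 tdT+ libraries and 986, 1269.6, 679.6 and 448 in vehicle libraries, all below the lowest tdT- library. Against vehicle cells the muscle enolase Eno3 (1.89 ± 0.58, adjusted p = 0.0223) and Gpd1l, related to glycerol 3-phosphate dehydrogenase (0.79 ± 0.25, adjusted p = 0.0296), were higher as well, with calls kept in 13 and 10 of 19 alternative fits and lost with edgeR.

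Among the genes listed beside the pentose phosphate pathway, Me2, a mitochondrial malic enzyme that turns malate into pyruvate, had 331, 1085, 909 and 994 normalised counts in tdT- libraries, 199.7, 97.7, 162 and 224 in BLZ945 tdT+ libraries and 387, 649, 646 and 735 in vehicle libraries. Me2 was thus low in the BLZ945 tdT+ group alone, without overlap with either other group. The log2 fold change was 2.28 ± 0.41 between tdT- and BLZ945 tdT+ cells (DESeq2 adjusted p = 2.48e-06), -1.82 ± 0.41 between both tdT+ groups (adjusted p = 0.00245, edgeR adjusted p = 0.228) and 0.46 ± 0.41 between tdT- and vehicle cells (adjusted p = 0.714).

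Idh2, the mitochondrial NADP-dependent isocitrate dehydrogenase, had 3701, 3592, 3374 and 4302 normalised counts in tdT- libraries, 5308, 5808, 5978 and 6808 in BLZ945 tdT+ libraries and 6168, 5871, 5319.7 and 5491 in vehicle libraries. It was lower in every tdT- library, with log2 fold changes of -0.67 ± 0.12 (DESeq2 adjusted p = 4.63e-07) and -0.61 ± 0.12 (adjusted p = 8.91e-06) that were kept in 19 of 19 alternative fits. Its cytosolic counterpart Idh1 was lower against vehicle cells (-0.56 ± 0.16, adjusted p = 0.0131), and Prps2, which makes phosphoribosyl pyrophosphate, was lower in both comparisons (-0.95 ± 0.32 in each, adjusted p = 0.0409 and 0.0404). Idh1 kept its call in 16 of 19 alternative fits, and Prps2 in 8 and 7 of 19, with the call lost with edgeR in both comparisons and with the replicate block against vehicle cells. Txnip, an inhibitor of glucose uptake whose transcription follows glucose 6-phosphate, had 24951, 18872, 15729.9 and 18459 normalised counts in tdT- and 28208, 26516, 28742 and 29736 in BLZ945 tdT+ libraries (log2 fold change -0.54 ± 0.12, adjusted p = 0.000376). Against vehicle cells Txnip was not past the threshold, and it passed in 1 of 19 alternative fits.

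Within the HIF pathway, Vhl, the ubiquitin ligase component that marks HIF for degradation, was higher in tdT- cells by 1.03 ± 0.33 on the log2 scale against BLZ945 tdT+ (DESeq2 adjusted p = 0.0285) and 1.17 ± 0.33 against vehicle cells (adjusted p = 0.00872). In the former comparison Vhl kept its call in 11 of 19 alternative fits, and lost it with the mouse as block (0.92, adjusted p = 0.0913) and with edgeR (adjusted p = 0.118). In the latter it kept the call in 16 of 19. Hif3a, a HIF subunit that can oppose the others, had 1 count over the 4 tdT- libraries against 206 in BLZ945 tdT+ and 276 in vehicle libraries. Its ratio was 202 (95% exact interval 35.8 to 8005) and 259 (46.2 to 10282) in favour of the tdT+ groups, which covers counting error only, and the tdT+ libraries spread widely, from 2.77 to 143 normalised counts after BLZ945 and from 0 to 149.8 in vehicle libraries.

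Some levels are bounded by the annotation. Strand was not used in counting, and 13 of the 33 genes share exon bases with another gene, most of them Pkm (767, with Gm49759), Pfkp (748, with Pitrm1) and G6pdx (418, with Ikbkg). Gapdh, Pgk1, Ldha, Eno1, Tpi1, Aldoa and Pgam1 are known for near-identical processed copies in the genome, and reads that map to several places were not counted, so that their levels per kilobase are uncertain.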

How the data were processed

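Per the labels and file headers, the authors made SMART-Seq low-input libraries from sorted cells, aligned with STAR 2.7.11a and counted reads per gene name over exons with featureCounts 2.0.6 (GENCODE M33, GRCm39), without strand and without reads that map to several places. The deposited values are raw counts, not normalised. The notes also name DESeq2 1.46.0.

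From these counts, 12 libraries in 3 groups of 4 were compared, and 0 columns of other samples were left over. A vehicle column with mouse label M1 was taken as M2 by its library number. After the removal of genes under 10 counts in 75% or more of the libraries, 9 of 12, the tests covered 13724 genes. DESeq2 1.42.0 (R 4.3.3, Wald test, all libraries, group only) gave unshrunken log2 fold changes ± SE and Benjamini-Hochberg adjusted p over all genes tested. DEGs needed an adjusted p up to 0.05 and, after apeglm 1.24.0 shrinkage, a log2 fold change of 1 or more in size. The scripts were tested on simulated data. Normalised counts are counts over DESeq2 size factors, and levels per kilobase divide these by exon length. Replicates are separate mice. The closest of 18 replicate pairs differed by a chi-square of 45.6 per degree of freedom, so none was a duplicate.

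tdT- and tdT+ libraries with the same label are from the same BLZ945 mouse, so a fit with the mouse as replicate block was an alternative. The correlations of their deviations from the group means were 0.0115 to 0.0375. Other alternatives were edgeR 4.0.16 (quasi-likelihood, TMM), other filters, and leaving out each library, 19 in each comparison. Intervals cover counting error only. Of the genes, those past the threshold in any comparison and the most abundant of each role were described in full, and of the other pathway genes up to 3 with the smallest adjusted p in each list and comparison. Members and lists were chosen with earlier results of these data known.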

Additional observations from a re-analysis of the deposited data

Results flagged for a closer look

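In 9 of 99 groups of 4 libraries, 1 library stood apart from the other 3 by Dixon's test at the 95% level, which chance gives in about 1 in 20 groups, 4.95 of 99. In vehicle libraries these were Tpi1 in F1, at 3536 normalised counts against 3015 to 3054, and Ldhb in M2, at 605 against 861 to 875. In BLZ945 tdT+ libraries they were Slc2a3 in F1, at 123 against 239.6 to 263, and Pfkl in M2, at 1354 against 2045 to 2140.4. In tdT- libraries Hk2 was high in M1 (2056 against 1441 to 1541), Eno1 was low in F1 (8661 against 10342 to 10624) and Eno2 was high in M2 (86.1 against 0 to 14.6). The tdT- library F2, which holds the neutrophil transcripts, was high for Pgd, at 3737 against 1884 to 2173, and for Fbp1, at 25.4 where the others were at 0.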

How the results depend on the processing

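No difference past the threshold changed direction in the 19 alternatives run for each comparison. Between tdT- and BLZ945 tdT+ cells, 6 members passed in the reported fit, 2 with edgeR, 3 with the mouse as replicate block and 4 to 9 when 1 library was left out, with 4 without BLZ945 tdT+ M1, BLZ945 tdT+ M2 or tdT- M1 and 9 without tdT- M2. Of the other pathway genes 7 passed, 4 with edgeR and 5 to 10 when 1 library was left out. Between both tdT+ groups, 0 members passed and 0 to 1 when 1 library was left out, Aldoc without BLZ945 tdT+ M2, which was then also a DEG. Of the other pathway genes 2 passed, 0 with edgeR, 4 without the low-count filter, 0 for genes averaging 100 normalised counts or more and 1 to 3 when 1 library was left out. Between tdT- and vehicle cells, 6 members passed, 4 with edgeR and 4 to 9 when 1 library was left out, with 4 without tdT- F1 or vehicle M2 and 9 without tdT- M2. Of the other pathway genes 8 passed, 2 with edgeR, 4 with the replicate block and 4 to 8 when 1 library was left out. Vehicle and BLZ945 mice share only a label, so that the block does not pair them. The cause of these changes was not tested. With 4 libraries in each group, differences near 0.4 on the log2 scale, as for Tpi1, Eno1 and Gapdh, passed in some fits only. Eno2 and Fbp1 were at 0 in some libraries, and the cause was not tested.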
